A study of Mus musculus with 6 samples.

Results

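The genes of glycogen synthesis and breakdown were examined in C2C12 myotubes after knockdown of DJ-1. Members were taken by gene name from a fixed list of 9 enzymes and enzyme subunits (UGP2, GYG, GYS1, GBE1, PYGM, PYGB, PYGL, PHKA1 and PHKG1, spelled as on the array), 9 of the 30854 gene names in the probe report, and each of their 15 probes was kept separate. C2C12 cells are mouse myoblasts of an established line, which exit the cell cycle and fuse into myotubes once differentiation is induced. Myoblasts received 60 nM of a scramble siRNA (Scramble, 3 arrays) or of an siRNA against DJ-1 (siDJ-1, 3 arrays), differentiation was started 48 h after transfection, and RNA was taken after 4 days. Both groups come from this 1 line, and the sample labels give replicate numbers but do not say how the cultures were separated, so p-values measure the spread between these samples, which may be technical. All 6 RNA samples were hybridized to a single Illumina mouse BeadChip, 1 array per sample, which reports a mean bead intensity (signal) and a detection p-value against negative control beads for each probe.

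Glycogen is the stored form of glucose, and in muscle it fuels contraction. To build it, UDP-glucose pyrophosphorylase (UGP2) activates glucose 1-phosphate, glycogenin (GYG) primes a chain, glycogen synthase (GYS1 in muscle) lengthens it and the branching enzyme (GBE1) adds branch points. To break it down, glycogen phosphorylase releases glucose 1-phosphate. Phosphorylase is made from separate genes named for muscle (PYGM), brain (PYGB) and liver (PYGL), and it is switched on by phosphorylase kinase, whose muscle alpha and catalytic gamma subunits are PHKA1 and PHKG1.

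The targeted gene was examined first. Park7, which encodes DJ-1, had signals of 12019.5, 10900.4 and 12251.4 in Scramble myotubes and 5934.8, 6585.5 and 4233.7 in siDJ-1 myotubes. Every siDJ-1 array was below every Scramble array, as the labels have it, with a log2 fold change of -1.16 (SE 0.14, n = 3 per group, adjusted p = 0.00344 from limma over all probes tested).

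The signal of PYGL rose in siDJ-1 myotubes on both of its probes, by 3.56-fold and 2.33-fold (log2 fold changes of 1.83 and 1.22, or 1.16 and 0.47 without background correction; the second probe was not detected on 1 Scramble array), while PYGB and PYGM did not pass the test. Among the enzymes of synthesis, 1 of the 2 GYG probes was lower, and UGP2 and GYS1 did not pass. A probe was tested where its detection p was under 0.05 on at least 3 of the 6 arrays, which 9 of the 15 probes and 7 of the 9 genes did, and was called at an adjusted p under 0.05 (limma, Benjamini-Hochberg over all 17890 probes tested). Of these 9 probes, 2 were called higher (22.2%) and 1 lower (11.1%). Across all probes tested, 30.1% were called, 16.5% higher and 13.6% lower, so the 33.3% called among the members is close to the share on the whole array. The median log2 fold change (siDJ-1 over Scramble) was -0.020 over the 9 member probes and 0.046 over all probes tested. Normalized signals of Scramble and siDJ-1 myotubes were fully separated for 4 of the 9 probes (44.4%), against 48.5% of all probes tested.

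**Figure D1:**
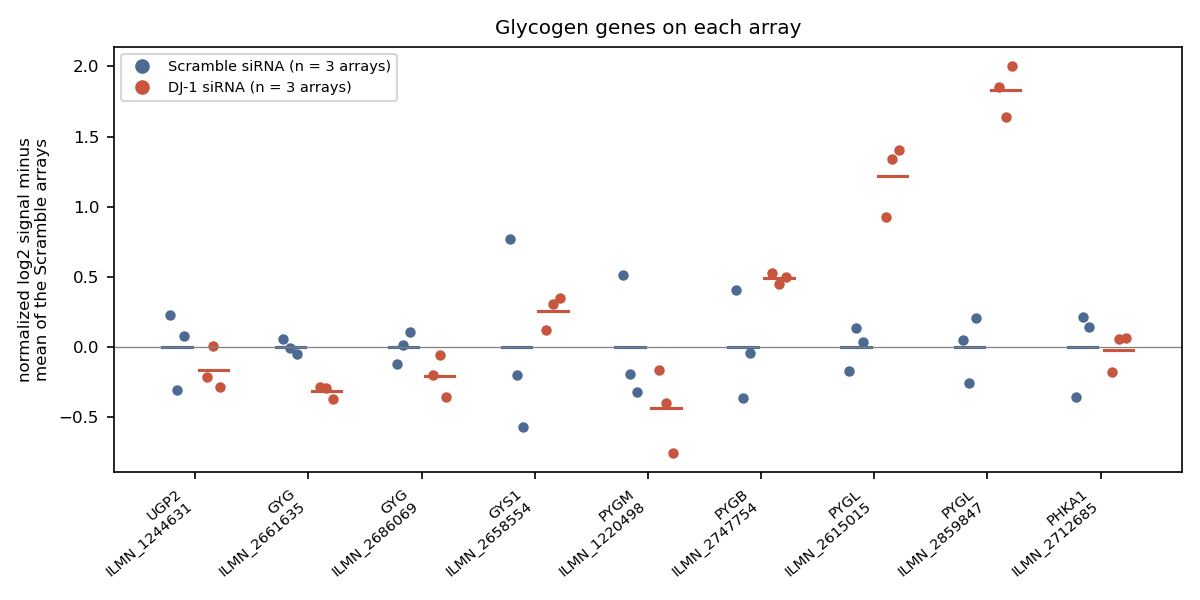
Normalized log2 signal of the 9 tested probes on each array, relative to the mean of the Scramble arrays of the same probe; points are arrays (3 per group) and bars are group means. The siDJ-1 points of both PYGL probes lie above all Scramble points, by a mean of 1.22 and 1.83.

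Among the synthesis enzymes, UGP2 (probe ILMN_1244631) had signals of 892.9, 663.8 and 773.4 in Scramble myotubes and 661.4, 822.7 and 559.2 in siDJ-1 myotubes. The groups overlapped, and the log2 fold change of -0.16 (95% interval -0.56 to 0.23, adjusted p = 0.485) was within the spread between arrays. Over the alternatives it ranged from -0.32 without Scramble replicate 2 to -0.051 without Scramble replicate 1, with no call.

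Glycogenin, the protein on which a glycogen particle starts, was measured by 2 probes that were detected on all 6 arrays. For ILMN_2661635 the signal was 1113.2, 1082.6 and 985.3 in Scramble myotubes and 874.6, 954.2 and 734.2 in siDJ-1 myotubes. All siDJ-1 arrays were below all Scramble arrays, and GYG fell on this probe by 0.31 on the log2 scale (SE 0.091, adjusted p = 0.0416). The other probe, ILMN_2686069, gave 1742.9, 1877 and 1879.6 in Scramble myotubes and 1612.7, 1930.8 and 1279.2 in siDJ-1 myotubes. Here the groups overlapped and the log2 fold change was -0.20 (95% interval -0.49 to 0.079, adjusted p = 0.235). The difference between the probes was not tested. The call on ILMN_2661635 was near the threshold: it was lost in 10 of 15 alternative settings, among them each setting that left out 1 array, where the log2 fold change lay between -0.34 and -0.29, and the highest adjusted p over all alternatives was 0.116.

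Glycogen synthase was called on neither of its probes. GYS1 probe ILMN_2658554 had signals of 273.1, 210.4 and 177.8 in Scramble myotubes and 217.5, 241.3 and 211.3 in siDJ-1 myotubes. The Scramble arrays spread on both sides of the siDJ-1 arrays, with normalized log2 signals of 6.28 ± 0.69 (SD, n = 3) and 6.54 ± 0.12 (SD, n = 3). The log2 fold change of 0.26 (95% interval -0.51 to 1.03, adjusted p = 0.579) depended on single Scramble arrays. It was 0.66 (adjusted p = 0.0265) without Scramble replicate 1 and -0.025 (adjusted p = 0.958) without Scramble replicate 3. The second GYS1 probe, ILMN_1251254, was not detected on any array, with signals of 134.6 to 154.6.

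The branching enzyme could not be compared. GBE1 probe ILMN_1258517 was not detected on any array (signals of 141.8 to 174.5), and ILMN_2592690 was detected on 1 siDJ-1 array, with a signal of 173.7, and on no other (136.7 to 163.7). These values are at the background of the arrays and say nothing of a change in the gene.

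All 3 genes of phosphorylase, the enzyme of breakdown, had a tested probe. PYGM, the form of adult muscle, had signals of 716.3, 503.5 and 437.9 in Scramble myotubes and 479.5, 458.1 and 323 in siDJ-1 myotubes (probe ILMN_1220498). The groups overlapped. The log2 fold change was -0.44 (95% interval -1.04 to 0.17, adjusted p = 0.234), and over the alternatives it ranged from -0.60 to -0.18 with no call.

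PYGB, the form named for brain, had signals of 928.7, 607.7 and 678.3 in Scramble myotubes and 952.8, 998.9 and 821.1 in siDJ-1 myotubes (probe ILMN_2747754). After normalization all siDJ-1 arrays were above all Scramble arrays, though Scramble replicate 1 was close to them at 9.57 against 9.62 to 9.69 on the log2 scale. The log2 fold change of 0.49 (95% interval 0.032 to 0.95) did not pass (adjusted p = 0.0984). It passed in 4 of 15 alternatives, among them the fit without Scramble replicate 1, which gave 0.69 (adjusted p = 0.0156). Without Scramble replicate 2 it was 0.31 (adjusted p = 0.205) and did not pass. The highest adjusted p over the alternatives was 0.212.

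PYGL, the form named for liver, was the member with the largest change. Probe ILMN_2859847 had signals of 268.8, 250 and 265.3 in Scramble myotubes and 573.3, 554.5 and 547.9 in siDJ-1 myotubes. The arrays of each group lay close together and the groups were far apart. On the normalized log2 scale Scramble myotubes were at 6.95 ± 0.23 (SD, n = 3) and siDJ-1 myotubes at 8.78 ± 0.18 (SD, n = 3), a log2 fold change of 1.83 (SE 0.16, adjusted p = 0.00268).

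A second PYGL probe, ILMN_2615015, moved the same way. Its signals were 185.6, 201.4 and 180.2 in Scramble myotubes and 233.9, 282.5 and 246.8 in siDJ-1 myotubes. It was detected on 2 of 3 Scramble arrays and on all 3 siDJ-1 arrays, and every siDJ-1 array was above every Scramble array. The log2 fold change was 1.22 (SE 0.16, adjusted p = 0.00405). Both probes were called higher in every alternative in which they were tested, 15 for ILMN_2859847 and 14 for ILMN_2615015. For each probe 1 of these alternatives was the mean of both, at 1.53 (adjusted p = 0.00147), and not the probe by itself. The Scramble signals lay near background, and the size of the change depended on the background correction: without it the log2 fold changes were 1.16 and 0.47.

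**Figure D2:**
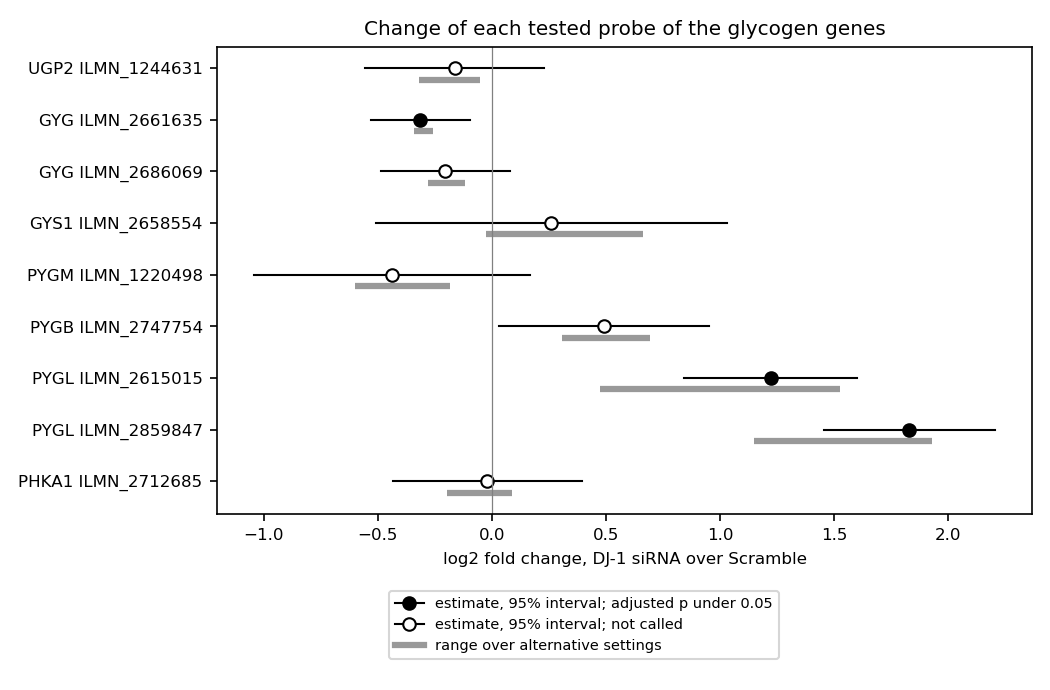
Log2 fold change of each tested member probe (siDJ-1 over Scramble) with its 95% confidence interval. Filled points passed an adjusted p of 0.05 and grey bars span the alternative settings, the mean of the probes of a gene included. Both PYGL intervals lie above 0, from 0.84 to 1.60 and from 1.46 to 2.21, and the grey bars of GYS1 and PHKA1 cross 0.

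To ask whether the phosphorylase genes changed unequally, the difference between the normalized log2 signals of 2 genes was taken within each array, with the mean of both probes for PYGL. These differences compare changes and not the levels of the genes. PYGL minus PYGM was -2.85, -2.15 and -1.83 in Scramble myotubes and -0.73, -0.39 and 0.18 in siDJ-1 myotubes. The groups did not overlap, and the difference moved by 1.96 (95% interval 0.85 to 3.07). PYGL minus PYGB moved by 1.03 (95% interval 0.32 to 1.74) and PYGB minus PYGM by 0.93 (95% interval 0.32 to 1.54). For each of the 3 pairs all siDJ-1 arrays were above all Scramble arrays. The two-sided exact permutation test gave p = 0.1 for each pair, 0.1 after Benjamini-Hochberg adjustment over the 3 pairs, which is the smallest p that 3 arrays against 3 allow. None of the pairs could therefore pass a threshold of 0.05. Without background correction the first pair moved by 1.13 and the second by 0.41.

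**Figure D3:**
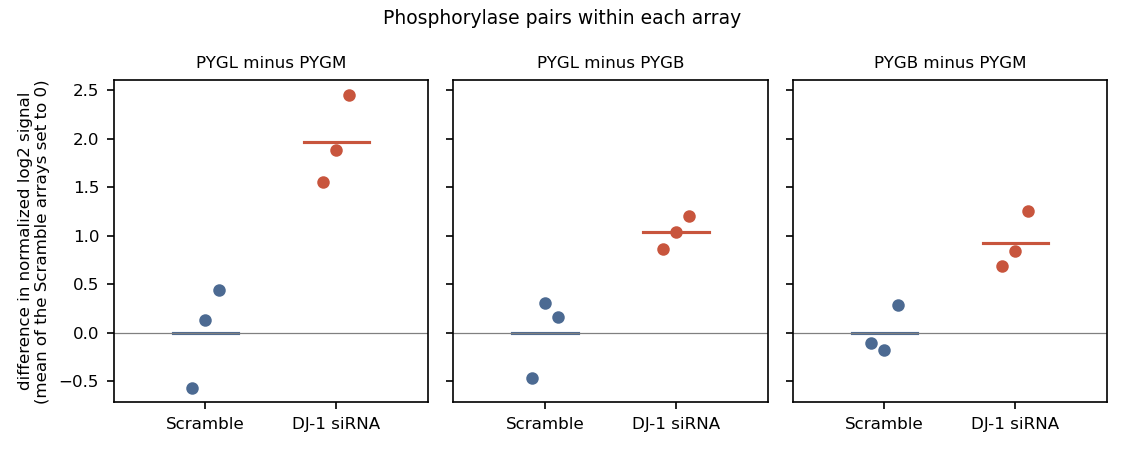
Difference in normalized log2 signal between 2 phosphorylase genes on each array, with the mean of the Scramble arrays set to 0; points are arrays (3 per group) and bars are group means. The siDJ-1 means lie 1.96, 1.03 and 0.93 above the Scramble means, and the groups do not overlap in any panel.

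The region before the start of each phosphorylase gene is shown because PYGL was called and its paralogs were not, together with that of Stbd1, the glycogen-binding gene described further on. All 9 members had a window in the RefSeq promoter table, from which the 250 bases upstream of the start were read on the strand of the gene (GRCm38.p6). Capitals mark ACGTG and GCGTG on either strand, the letters that hypoxia-inducible factors are known to recognize; CACGTG would hold ACGTG on both strands.
Pygl, chr12:70227684-70227933, minus strand: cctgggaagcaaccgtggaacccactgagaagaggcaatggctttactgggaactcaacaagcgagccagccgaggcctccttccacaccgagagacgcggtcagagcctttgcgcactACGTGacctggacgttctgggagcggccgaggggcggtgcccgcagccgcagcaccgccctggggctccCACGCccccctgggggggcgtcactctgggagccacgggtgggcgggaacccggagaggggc
Pygb, chr2:150786546-150786795, plus strand: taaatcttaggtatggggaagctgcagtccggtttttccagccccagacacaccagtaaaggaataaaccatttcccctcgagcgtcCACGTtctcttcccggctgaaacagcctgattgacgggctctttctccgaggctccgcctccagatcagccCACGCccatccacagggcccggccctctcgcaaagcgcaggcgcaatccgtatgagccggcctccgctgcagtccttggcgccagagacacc
Pygm, chr19:6384158-6384407, plus strand: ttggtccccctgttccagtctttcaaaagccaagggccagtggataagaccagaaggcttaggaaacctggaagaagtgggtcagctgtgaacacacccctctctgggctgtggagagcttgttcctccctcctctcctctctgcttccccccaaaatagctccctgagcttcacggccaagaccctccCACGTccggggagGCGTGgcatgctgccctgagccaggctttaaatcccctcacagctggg
Stbd1, chr5:92602801-92603050, plus strand: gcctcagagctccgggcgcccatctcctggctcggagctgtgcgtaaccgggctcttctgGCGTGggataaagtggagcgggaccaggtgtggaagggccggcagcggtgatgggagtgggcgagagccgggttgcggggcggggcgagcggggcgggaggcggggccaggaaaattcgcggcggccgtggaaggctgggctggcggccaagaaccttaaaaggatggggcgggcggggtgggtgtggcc
Each phosphorylase window held 1 ACGTG and 1 GCGTG, those of the uncalled PYGB and PYGM included, and that of Stbd1 held 1 GCGTG. Of the other members, Gyg had 1 GCGTG and Phka1 had 2, Gbe1, Gys1 and Phkg1 had neither pattern, and of 2 windows of Ugp2 one had neither and the other 1 ACGTG and 5 GCGTG. Among 32851 windows of this length, 16.6% held ACGTG, 28.2% held GCGTG and 38.6% held at least 1 of them. CANNTG, the letters read by the myogenic bHLH factors, was found 2 times before Pygm, not before Pygl or Pygb, and in 66.2% of all windows (CACGTG would count as ACGTG and as CANNTG). A match describes the letters only.

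Phosphorylase kinase was measured on few probes. PHKA1 probe ILMN_2712685 had signals of 236.5, 293 and 260.4 in Scramble myotubes and 242.6, 276.9 and 237.2 in siDJ-1 myotubes. The groups overlapped, with a log2 fold change of -0.020 (95% interval -0.44 to 0.40, adjusted p = 0.942). The other PHKA1 probes, ILMN_1230564 and ILMN_2755333, were not detected on any array (signals of 140.6 to 162.7 and 122.1 to 154.6). PHKG1, the catalytic subunit of muscle, was likewise not detected on any array, with signals of 134.2 to 169.2 on its probe ILMN_2769795.

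Other genes of glycogen metabolism were followed in a list of 44, of which 41 had a probe and 30 had a tested probe. Of their 44 tested probes 12 were called higher (27.3%, against 16.5% of all probes tested) and 2 lower (4.55%, against 13.6%), 31.8% in all against 30.1%. The median log2 fold change was 0.16, against 0.046 over all probes tested. The remaining 30 tested probes had log2 fold changes from -0.27 to 0.79. The count of called probes depended on the arrays used: it fell to 9 without Scramble replicate 2, 5 without Scramble replicate 3, and 3, 6 and 5 without siDJ-1 replicates 1, 2 and 3. Over the whole array the calls fell as well, to 3844 of 17547, 4074 of 17462, 2444 of 17166, 3965 of 17071 and 2612 of 17172. Without siDJ-1 replicate 1, 2 probes of the list were called higher, against 1257 of all 17166 tested. The larger share of higher calls in the list therefore depended on the arrays used. The list count was 4 when no filter was set on dim probes, where 3519 of 45281 probes were called.

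The largest rise in this list was that of Stbd1, a protein that binds glycogen and anchors it to membranes. Its signals were 3466.6, 2595.9 and 2804.4 in Scramble myotubes and 6709.7, 6507.4 and 6357.9 in siDJ-1 myotubes. All siDJ-1 arrays were well above all Scramble arrays, with a log2 fold change of 1.17 (SE 0.14, adjusted p = 0.00367) and a call in each of the 15 alternatives. Nhlrc1, the ubiquitin ligase malin, was at 0.52 on the same scale (adjusted p = 0.125), and no probe of Epm2a, which encodes laforin, was tested.

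Genes of the cyclic AMP pathway, through which hormones activate phosphorylase kinase, moved in both directions. Prkar2b, a regulatory subunit of protein kinase A, had signals of 1751.7, 1527.8 and 1590.1 in Scramble myotubes and 3041.5, 3446.9 and 2548.4 in siDJ-1 myotubes (ILMN_1253819). Its groups were well separated, with a log2 fold change of 0.94 (SE 0.10, adjusted p = 0.00309). Prkar1a, another regulatory subunit, moved the other way, from 17365.9, 18081.2 and 16253.7 to 11795, 14312.2 and 11512.6, a log2 fold change of -0.54 (SE 0.094, adjusted p = 0.00882). These 2 probes were called in each of the 15 alternatives. Prkar2a (ILMN_2760353), a further regulatory subunit, was called lower at -0.73 (adjusted p = 0.0409) and kept its call in 5 of 14 alternatives. It was detected on 1 of 3 siDJ-1 arrays, and the size depended on the treatment of background: -0.45 with the undetected arrays at the detection limit, and -0.24 and not called without background correction (-0.21 with the 75th percentile shift as well). Of 2 tested probes of the catalytic subunit Prkaca, ILMN_2833378 rose by 0.45 on the log2 scale (adjusted p = 0.0208, called in 12 of 15) and the other, ILMN_2833376, was at 0.34 (adjusted p = 0.0623).

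Protein phosphatase 1 opposes these kinases by activating glycogen synthase and inactivating phosphorylase. Of 12 tested probes in this group 3 were called (25%, against 30.1% of all probes tested). All 3 were higher, where 16.5% of all probes tested were called higher and 13.6% lower. They were both probes of the catalytic subunit Ppp1cb, each at 0.54 (adjusted p = 0.0256 and 0.0306), and the glycogen-targeting subunit Ppp1r3b at 0.51 (adjusted p = 0.0457). The brightest uncalled probe was one of Ppp1ca (ILMN_2960071), with a log2 fold change of -0.18 (adjusted p = 0.195). The 9 uncalled probes lay between -0.27 and 0.79, and 7 of the 12 tested probes were above 0. Ppp1cb was called in 10 and 11 of 15 alternatives and Ppp1r3b in 6; without background correction Ppp1r3b was at 0.22 and not called.

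In the supply of sugar phosphates, Slc37a4, which carries glucose 6-phosphate into the endoplasmic reticulum, rose by 0.61 on the log2 scale (adjusted p = 0.0449) and hexokinase 1 (Hk1) by 0.31 (adjusted p = 0.0461). These calls were kept in 9 and 2 of 15 alternatives. Without background correction the values were 0.29 (called) and 0.19 (not called). For G6pc3, a glucose 6-phosphatase, the log2 fold change was 0.38 (adjusted p = 0.150). Phosphoglucomutase joins this pool to glycogen, and Pgm1 (listed on the array under an older name) was called higher on ILMN_1230977, at 0.34 (adjusted p = 0.0376, called in 7 of 15 alternatives), and not on ILMN_2788673, at 0.18 (adjusted p = 0.250).

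In breakdown outside the cytosol, the lysosomal glucosidase Gaa rose by 0.33 on the log2 scale (adjusted p = 0.0324, called in 7 of 15 alternatives). Among 9 tested probes of the phosphorylase kinase group 1 was called, higher (11.1%, where 30.1% of all probes tested were called and 16.5% called higher). It was 1 of 3 for the liver alpha subunit Phka2, ILMN_2756176 at 0.53 (adjusted p = 0.0240, called in 11 of 15 alternatives). ILMN_2725082 was at -0.22 and ILMN_2725083 at 0.11, and the mean of the Phka2 probes was 0.14 (adjusted p = 0.272). Calm3, one of the calmodulin genes that supply the delta subunit, had a value of -0.046 (adjusted p = 0.804). Gsk3b, which phosphorylates glycogen synthase, was at 0.30 (adjusted p = 0.506). Gys2, the liver form of glycogen synthase, had no tested probe.

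**Figure D4:**
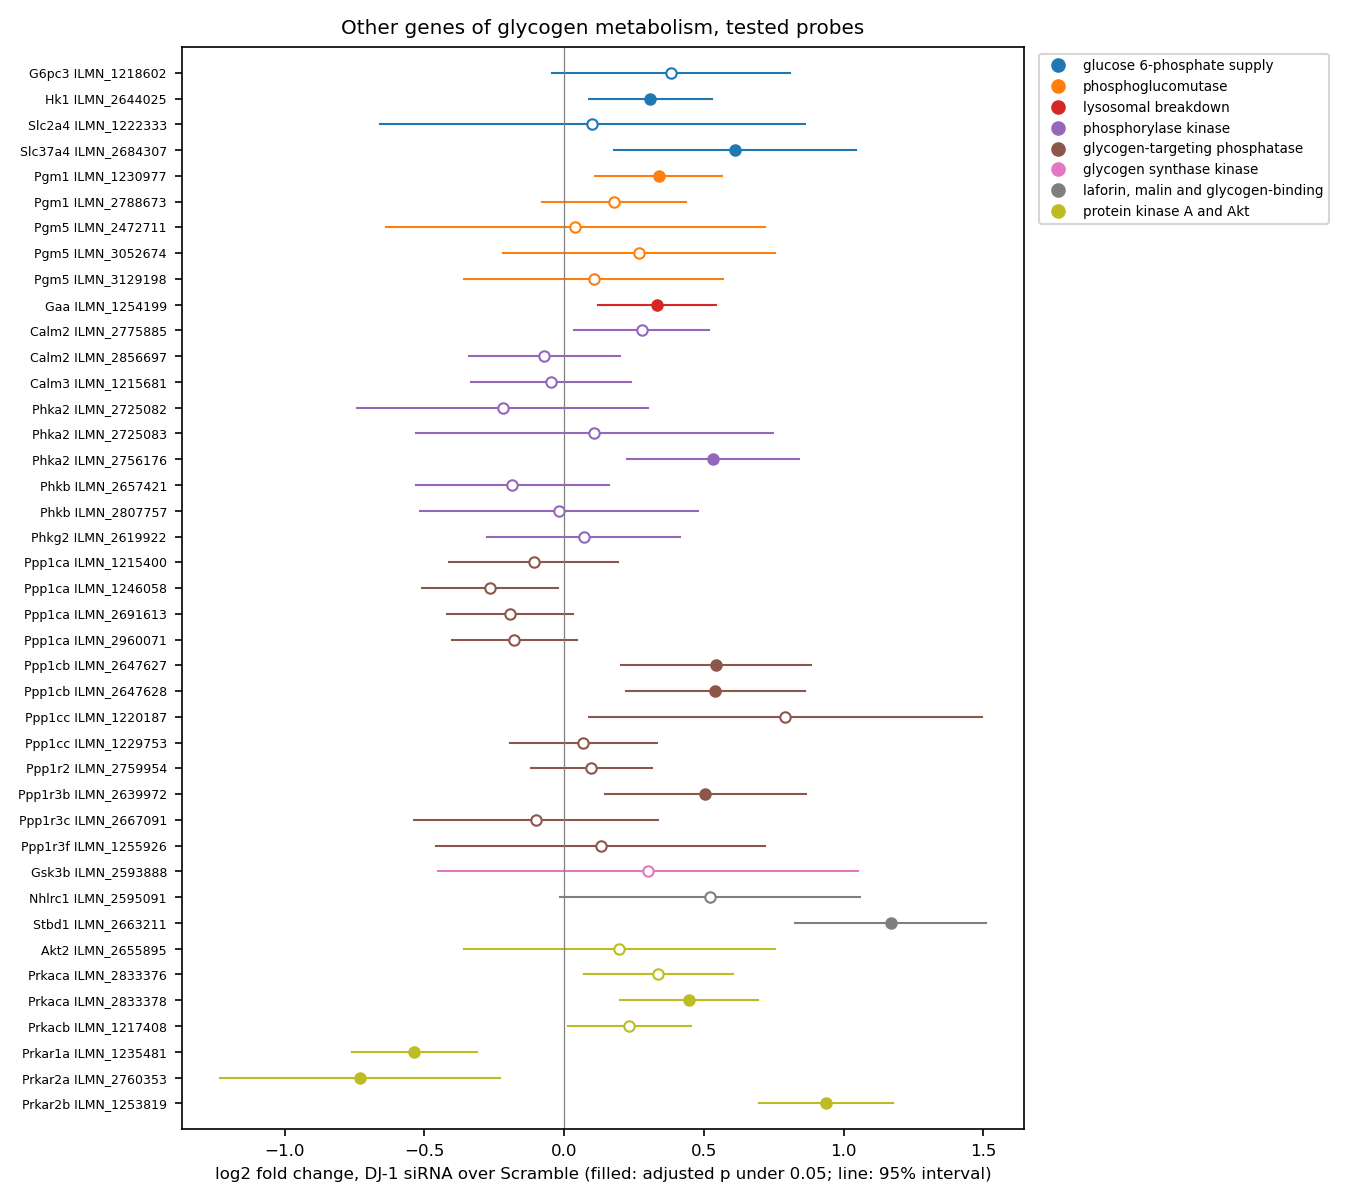
Log2 fold change (siDJ-1 over Scramble) of 41 of the 44 tested probes of other glycogen genes, coloured by role, with 95% confidence intervals; filled points passed an adjusted p of 0.05. Stbd1 lies furthest to the right at 1.17, and the 2 called probes on the left are Prkar1a and Prkar2a.

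Markers of the cells were read beside these genes. Of 29 tested probes of 20 myotube genes, 15 were called lower (51.7%, against 13.6% of all probes tested) and 0 higher (against 16.5%) at an adjusted p under 0.05 (limma). An unadjusted p under 0.05 was reached by 18 of the 29, and by 7659 of all 17890 probes tested. The median log2 fold change of these 29 probes was -0.42. Called lower on each of their tested probes were Myh4, Myh1 and Myh2, myosin heavy chains of fast fibres. The same held for Myh8, Casq1, Mybpc2, Myod1, Tnnc2, Des, Tnnt3 and Tnni2. The 14 probes not called had log2 fold changes from -0.42 to 0.22, and 3 of the 29 lay above 0. These 3 were both Actc1 probes, at 0.17 and 0.20, and 1 Myog probe, at 0.22. The other Myog probe was at -0.11. All of these genes are named here after their values were seen. The 2 probes of Myh1 were at -2.19 and -1.93 (adjusted p = 0.00284 and 0.00304). Myh4 was detected on 1 of 3 siDJ-1 arrays and Myh2 on 0. Myh4 signals were 717.1, 503.6 and 717.3 in Scramble and 159.6, 181.1 and 154.8 in siDJ-1 myotubes (adjusted p = 0.00224, limma). For Myh2 they were 200.5, 271.4 and 207.6 against 151.5, 155.6 and 142. Myh2 passed the detection filter only through its Scramble arrays, and so did Myh4 but for 1 siDJ-1 array. The calls of both genes, counted among the 15, are therefore not read as support. After background correction, the Scramble mean lay 11.6-fold (Myh4) and 2.07-fold (Myh2) above the detection limit of the siDJ-1 arrays. These folds are on the corrected scale and are not bounds on the change. Both lie below the median of the 29 probes at this limit too, so the median of -0.42 was bound to stay the same. The signal summed over the 31 probes of this list was 300946, 305934 and 284653 in Scramble myotubes and 260963, 296193 and 221271 in siDJ-1 myotubes, so the groups overlapped. Every gene of the list was detected on at least 1 array, and the signal of the most abundant, Acta1, differed by -0.0050 on the log2 scale (adjusted p = 0.977). Of 6 tested probes for cycling myoblasts 1 was called, lower (16.7%, where 30.1% of all probes tested were called and 13.6% called lower). It was a Ccnb1 probe (ILMN_2659052) at -0.57 (adjusted p = 0.0161). The other Ccnb1 probe, ILMN_2753497, was at -0.31 with overlapping groups and was not called (adjusted p = 0.166). Of the 6 probes, 4 had a log2 fold change above 0, up to 0.47, and the median was 0.22. Fewer cells of a type and less RNA per cell cannot be told apart in these bulk samples, and the part of the muscle genes in the values of PYGL, PYGM and the other glycogen genes was not tested.

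Defining markers of other cells were largely at background. Alb, Ttr and Apoa1 of hepatocytes were not detected on any array of either group. Likewise not detected were Adipoq and Plin1 of adipocytes, Rbfox3, Snap25 and Gfap of neurons and astrocytes, Ptprc of leukocytes and Pax7 of muscle progenitors. Fabp4 of adipocytes was detected on 1 of the 6 arrays. Cd68 was the most abundant by signal of the leukocyte list, detected on 1 Scramble and 3 siDJ-1 arrays, with a log2 fold change of 0.52 (adjusted p = 0.169) that was 0.055 with undetected arrays at the detection limit, and Ccnb1 that of the cycling list.

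Array quality also moved with the groups. Bead-to-bead noise, as the median standard error of a probe, was 11.3, 8.30 and 8.66 in Scramble myotubes and 7.17, 6.36 and 5.88 in siDJ-1 myotubes. Probes with a detection p under 0.05 numbered 16985, 17399 and 18179 in Scramble myotubes and 18704, 18857 and 18408 in siDJ-1 myotubes, whereas the median signal was 162, 167 and 154 against 161, 167 and 152. The part of bead noise in the calls was not tested, and with 3 arrays per group the precision of each value is limited.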

How the data were processed

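The authors read 6 arrays (3 per group, 1 BeadChip) with GenomeStudio. The deposited table lists 45281 probes with a mean signal intensity, given with no normalization or background subtraction, the spread over beads as a standard error, a bead count, and a detection p-value that the authors obtained against negative control beads. In R 4.3.3 with limma 3.58.1, intensities were corrected by normexp (background inferred from the detection p-values, offset 16), quantile normalized and put on the log2 scale. The probes detected (p under 0.05) on 3 or more arrays were fitted with lmFit and eBayes, with Benjamini-Hochberg adjustment over all of them and a threshold of 0.05. Intervals are 95% intervals of this fit; those of the differences between phosphorylase genes use the pooled spread of the arrays. The script was tested on simulated data.

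Members kept the name of the array. Other probes were named through the RefSeq gene table of GRCm38.p6 by Entrez number or accession where matched (32345 probes), and otherwise by the name of the array. Named are every probe of the members, Park7, every called probe of the wider list with the brightest uncalled one of each role, and, of the marker lists, the most abundant gene (where its probe was detected) and the markers not detected on any array. Other markers are marked as chosen after their values were seen. Where no array of a group detected a probe, its change is given on the background-corrected scale and is not a bound. It is the mean log2 signal of the detected group against a limit. On every array the limit is the lowest signal of any detected probe or, if that is higher, the signal of the probe itself. The limit is then averaged over arrays. The same limit was taken, after values were seen, for probes detected on 1 array of a group and on all of the other. The results of 2 genes of the wider list are counted with it and not reported here. The members and lists, and the sequence patterns searched, were chosen with earlier results of these data known. Alternatives were other background corrections and offsets, a 75th percentile shift, no filter or a stricter one (detection p under 0.01 on all arrays), a trend of the prior variance, the replicate number as a block, gene means and each array left out. Under gene means each probe was given the value of the mean of its gene.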

Additional observations from a re-analysis of the deposited data

How the results depend on the processing

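Knockdown of Park7 was called under each of 15 alternatives, with log2 fold changes from -1.24 to -1.003, and both PYGL probes under each in which they, or their mean, were tested. Signal over background limits the dim probes: without background correction PYGL minus PYGM moved by 1.13 and PYGL minus PYGB by 0.41, and with a 75th percentile shift as well by 1.15 and 0.42, since subtraction widens folds near background. Without a filter on dim probes, 3519 of 45281 probes were called in place of 5387 of 17890, and 4 of the wider list in place of 14, with more probes adjusted for. When the probes of a gene were averaged, 1 of 7 member genes was called, PYGL, in place of 3 probes. Under the stricter filter GYS1, Prkar2a and the PYGL probe ILMN_2615015 were not tested.

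Leaving out 1 array gave 2444 to 5302 called probes in all (2444 without siDJ-1 replicate 1 and 2612 without siDJ-1 replicate 3), between 2 and 4 called member probes and 3 to 11 called probes of the wider list. Fewer arrays were then compared. PHKA1, not called in any setting, turned to 0.089, 0.051 and 0.058 without Scramble replicate 2, Scramble replicate 3 and siDJ-1 replicate 1, in a range of -0.20 to 0.089 over single arrays left out, and GYS1, at -0.025 without Scramble replicate 3, in a range of -0.025 to 0.66. The cause was not tested.

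The replicate numbers are not known to pair the cultures. Deviations of arrays with the same number correlated at 0.054, 0.047 and 0.020 over 17890 probes, and each of the 6 arrays correlated best with the array of its own number. The deviations were taken from the mean of each group, so these matches are not independent of each other. The correlations are small and do not show that the cultures were paired. With the replicate number as a block, 4350 probes were called, 2 of them members (both PYGL) and 11 of the wider list.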
